A study of Mus musculus with 25 samples.

Results

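mmu-mir-150, mmu-mir-342 and mmu-mir-31 are microRNA precursors that blood lymphocytes are known to make, and their levels were followed in mouse blood across adult life. They are 3 of the 1193 precursors in the deposited count table, chosen by name with earlier results of these data known. All 3 passed the filter on low counts and were tested. Whole blood was drawn from C57BL/6 males, which belong to an inbred laboratory strain, aged 2, 9, 15, 24 and 30 months, and the labels name no mutation, transgene or treatment. Each age had 5 libraries, each numbered apart in the labels, which made 25 in all. The comparisons ask how the blood level of each precursor differs between ages, and how far it differs between animals of 1 age. The labels name no sorting of the blood, so no level can be assigned to a cell type.

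A microRNA precursor is a short RNA hairpin, from which the enzyme Dicer cuts a mature strand that guides Argonaute proteins to complementary sites in messenger RNAs. miR-150 is known as a microRNA of mature B, T and natural killer lymphocytes, and in mice it represses the transcription factor Myb during B cell development. miR-342 is carried in an intron of Evl, an actin regulator gene, and is found in lymphoid and myeloid cells. miR-31 is known from T cells and from epithelia such as skin.

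The 3 hairpins lie on different chromosomes, so no shared transcript carries them. In the mouse assembly GRCm38.p6, mmu-mir-150 lies at chr7:45121757-45121821 on the plus strand, outside any other gene. mmu-mir-342 lies at chr12:108658620-108658718 on the plus strand, in an intron of Evl and on its strand. mmu-mir-31 lies at chr4:88910557-88910662 on the minus strand, in an exon of the long noncoding RNA gene AL805899.1 and on its strand. Reads were counted per hairpin, and the hairpin sequences from RefSeq (GRCm38.p6) are shown so that the counted unit can be seen, 5′ to 3′ with both mature arms in capitals.
mmu-mir-342 hairpin: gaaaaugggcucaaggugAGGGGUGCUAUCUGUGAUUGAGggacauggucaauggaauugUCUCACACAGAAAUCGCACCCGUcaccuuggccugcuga
mmu-mir-31 hairpin: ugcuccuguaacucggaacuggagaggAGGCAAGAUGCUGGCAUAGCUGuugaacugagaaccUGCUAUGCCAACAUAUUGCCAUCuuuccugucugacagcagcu

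The mature strands show whether the precursors could share targets through their seed, bases 2 to 8, which pairs with the messenger RNA. The following RefSeq sequences (GRCm38.p6) have the seed in capitals.
mmu-miR-150-3p: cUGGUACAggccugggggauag
mmu-miR-342-5p: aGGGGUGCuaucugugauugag
mmu-miR-342-3p: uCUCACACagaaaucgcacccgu
mmu-miR-31-5p: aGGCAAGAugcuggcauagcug
mmu-miR-31-3p: uGCUAUGCcaacauauugccauc
The other mature strand of the mmu-mir-150 hairpin is mmu-miR-150-5p. It was missing from the sequences used, so its seed was not compared and could be shared. The 5 seeds shown were all different, and none of the 5 was found in another of the 1738 mouse mature sequences of the same table. The counts do not tell the arms of a hairpin apart.

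The libraries held 4.884 to 24.25 M (mega) counts, with a median of 15.39 M and the smallest totals at 24 and 30 months. Levels are given as CPM, counts per M counts of the scaled library size. The scaling factors were 0.803 to 0.961 at 2 months, 0.778 to 1.183 at 9 and 0.842 to 1.265 at 15 months. They were 0.930 to 1.290 at 24 and 0.907 to 1.228 at 30 months. A factor under 1 raises the CPM of its library. Per M counts of the unscaled library total, a floor of 3 counts corresponded to 0.124 to 0.614. These floors cover counting error only, since the reads carry no molecular identifiers. Red cell microRNAs took 62.8% to 73.5% of the counts of a library. The 13 lymphocyte precursors set as markers beside the 3 hairpins (mir-155, mir-146a, mir-142a and members of the mir-181 and mir-29 families) were all detected at every age, and summed to 10234 to 13398 CPM at 30 months, against 9908 to 12242 CPM at 2 months. These markers are also made by other blood cells and tissues. The column names place the libraries in 6 sequencing lanes of 3 to 5 libraries each, spread unevenly over the ages.

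mmu-mir-150 averaged 357 CPM over the 25 libraries and ranked 61st by mean level among the tested precursors. It had 380, 473, 290, 268 and 370 CPM in the 5 libraries of 2 months. It had 477, 462, 268, 469 and 249 CPM at 9 months. It had 310, 221, 439, 466 and 402 CPM at 15 months. Up to this age every library lay between 221 and 477 CPM, and the ages overlapped throughout. At 24 months the values were 775, 581, 87.2, 64.0 and 430 CPM. At 30 months they were 148, 363, 371, 311 and 246 CPM. The highest and the lowest value of the whole set were both at 24 months, a 12.1-fold range among 5 animals of that age, against 1.76-fold at 2 months. The libraries with 64.0 and 87.2 CPM held 4.884 and 19.66 M counts in all, and the part of depth in these values was not tested.

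The age means of mmu-mir-150 were 356 ± 81.5 CPM at 2 months, 385 ± 116 at 9, 368 ± 101 at 15, 387 ± 310 at 24 and 288 ± 92.9 at 30 months (SD, n = 5 each). In order of level they ran 24, 9, 15, 2 and 30 months, and no neighbours in that order were further apart than their SD. None of the 10 comparisons passed the threshold of 0.05 for mmu-mir-150 in edgeR's quasi-likelihood test with Benjamini-Hochberg adjustment over all tested precursors, while the share of all precursors called ran from 0% to 19.8% over the comparisons. At 30 against 2 months the log2 change was -0.31 (SE 0.44, 95% interval -1.22 to 0.61, adjusted p = 0.713), and 3 of the 5 libraries of 30 months lay under the mean of 2 months. At 24 against 2 months it was 0.12 (95% interval -0.79 to 1.04, adjusted p = 0.910). The straight line over all ages had a slope of -0.08 log2 units per 10 months (95% interval -0.36 to 0.21, adjusted p = 0.746). The interval at 30 against 2 months spans folds of 0.428 to 1.53, so it holds changes in either direction. The direction at 24 against 2 months was not stable, since the log2 change of mmu-mir-150 ran from -0.23 to 0.41 with 1 library left out and from -0.44 with limma-voom to 0.45 with library totals. In whole blood, fewer cells of a type and less RNA per cell cannot be told apart.

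**Figure D1:**
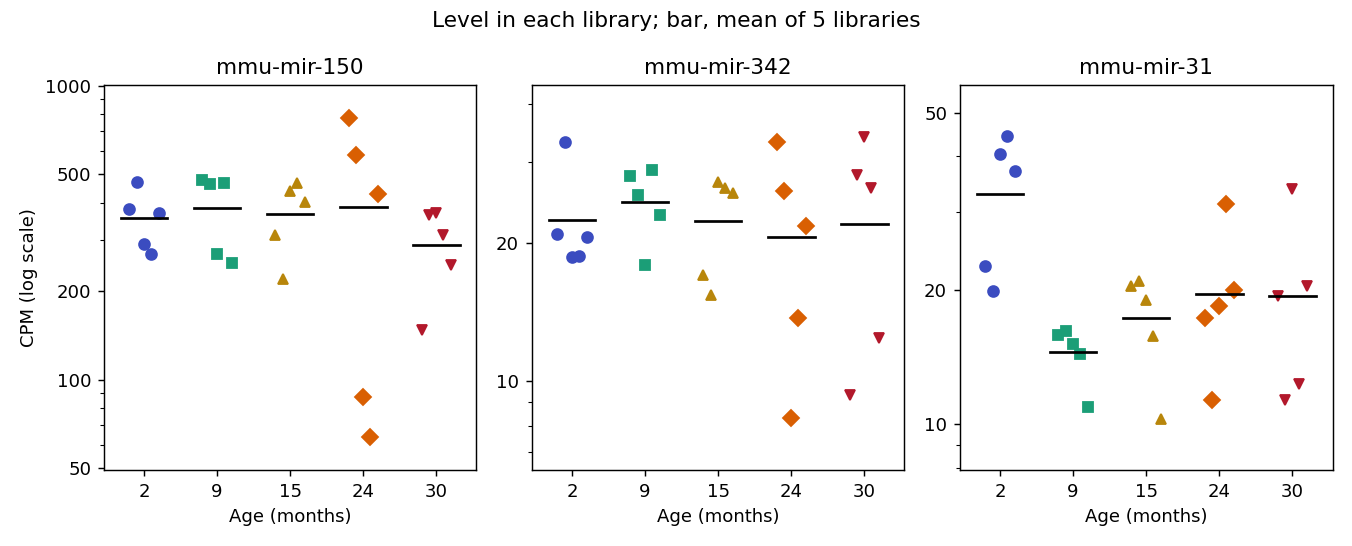
Level of each precursor in each of the 25 libraries (CPM, log axis) by age in months; each point is 1 library and each bar the mean of 5. The libraries of mmu-mir-150 spread most at 24 months, and for mmu-mir-31 the 5 libraries of 9 months, at 10.9 to 16.2 CPM, all lie under those of 2 months, at 19.9 to 44.4 CPM. Per M counts of the unscaled library total, mmu-mir-31 at 9 months overlaps 2 months.

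mmu-mir-342 was far less abundant, with a mean of 22.4 CPM over the 25 libraries, rank 134, and counts of 78 to 714 per library. It had 20.9, 33.0, 18.6, 18.7 and 20.6 CPM at 2 months. It had 27.9, 25.4, 17.8, 28.7 and 22.9 CPM at 9 months. It had 17.0, 15.4, 27.1, 26.3 and 25.7 CPM at 15 months. These 3 ages overlapped, and 1 library of 2 months stood above its 4 companions. At 24 months the values were 33.2, 25.9, 8.32, 13.7 and 21.7 CPM. At 30 months they were 9.33, 28.1, 33.9, 26.2 and 12.4 CPM. Values under 15 CPM occurred in 2 libraries of 24 months and 2 of 30 months, and in no younger library. This limit was chosen after the values were seen, and the pattern depended on the scaling. Per M counts of the unscaled library total, replicate 1 of 15 months had 14.7 and replicate 4 of 24 months had 16.0.

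The age means of mmu-mir-342 lay within 20.6 to 24.6 CPM, and in order of level they ran 9, 2, 15, 30 and 24 months with no neighbours further apart than their SD. Within an age the SD was 4.38 to 6.04 CPM up to 15 months, 9.82 CPM at 24 months and 10.6 CPM at 30 months. No comparison passed the edgeR test. At 30 against 2 months the log2 change of mmu-mir-342 was -0.03 (SE 0.32, 95% interval -0.70 to 0.64, adjusted p = 0.974). At 24 against 2 months it was -0.12 (95% interval -0.78 to 0.55, adjusted p = 0.877). A p above the threshold does not show that the ages were alike, and the interval at 30 against 2 months still holds folds of 0.617 to 1.56.

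mmu-mir-31 averaged 20.8 CPM, rank 136, and its highest library of all was at 2 months. It had 22.6, 19.9, 40.4, 44.4 and 37.1 CPM at 2 months. It had 15.9, 16.2, 15.2, 14.4 and 10.9 CPM at 9 months, so that the highest library of 9 months lay under the lowest of 2 months. Per M counts of the unscaled library total these ages overlapped. Replicate 1 of 9 months then had 18.8, against 18.2 and 17.3 in replicates 1 and 2 of 2 months. It had 20.5, 21.0, 19.0, 15.8 and 10.3 CPM at 15 months. At 24 months the values were 17.3, 11.3, 18.5, 31.1 and 20.02 CPM. At 30 months they were 19.4, 11.3, 33.7, 12.3 and 20.5 CPM. The ages of 15, 24 and 30 months each overlapped 2 months. At 2 months itself replicates 1 and 2 lay well under the other 3.

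The age means of mmu-mir-31 were 32.9 ± 11.0 CPM at 2 months, 14.5 ± 2.13 at 9, 17.3 ± 4.43 at 15, 19.6 ± 7.22 at 24 and 19.4 ± 8.97 at 30 months (SD, n = 5 each). Every older age had a lower mean than 2 months, and in order of level the ages ran 2, 24, 30, 15 and 9 months. The 4 older means were closer together than the larger SD of any pair of them. In edgeR's quasi-likelihood test with Benjamini-Hochberg adjustment, the log2 level of mmu-mir-31 fell by 1.18 at 9 against 2 months (SE 0.29, 95% interval -1.77 to -0.59, adjusted p = 0.0266), a level 0.442 times that of 2 months, with 5 of 5 libraries lower. In that comparison 2.07% of the tested precursors were called, and 1.48% had groups without overlap in scaled CPM and lower levels at 9 months. At 15 against 2 months the log2 change was -0.93 (95% interval -1.51 to -0.34, adjusted p = 0.173), and 1.48% of the precursors were called. At 24 against 2 months it was -0.75 (95% interval -1.34 to -0.17, adjusted p = 0.0898), where 12.1% were called. At 30 against 2 months it was -0.76 (95% interval -1.35 to -0.17, adjusted p = 0.0762), where 14.2% were called. These 4 comparisons share the libraries of 2 months, and the intervals are not adjusted for the number of precursors. The 3 later ones did not pass the threshold, although 5, 5 and 4 of 5 libraries lay under the mean of 2 months at 15, 24 and 30 months.

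**Figure D2:**
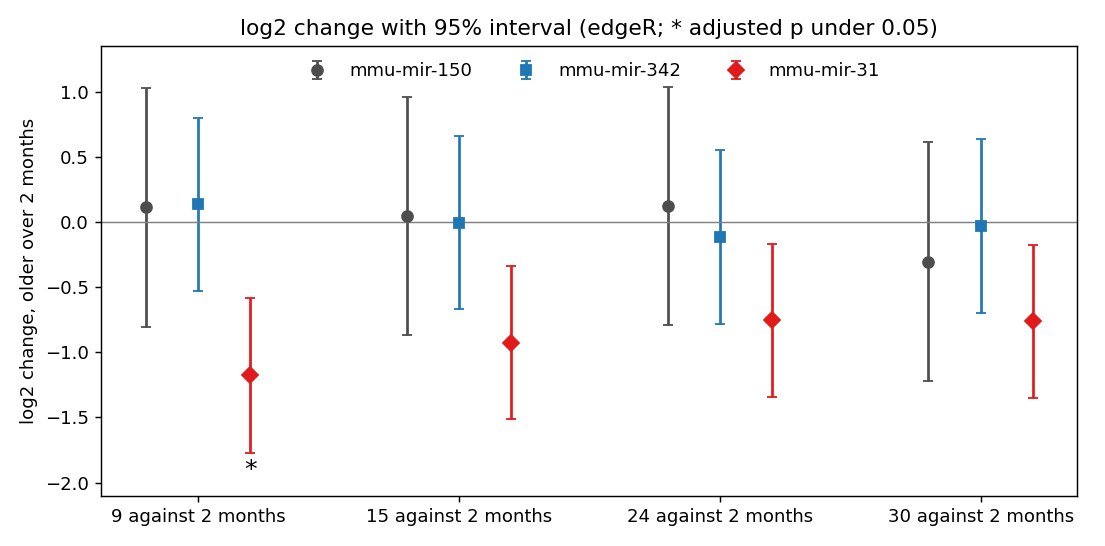
log2 change of each precursor at 9, 15, 24 and 30 months over 2 months, from edgeR, with its 95% interval; the star marks an adjusted p under 0.05. The 4 values of mmu-mir-31 run from -1.18 to -0.75 with intervals under 0, and those of mmu-mir-150 and mmu-mir-342 have intervals that hold 0.

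The test for any difference among the 5 ages called mmu-mir-31 with an adjusted p of 0.0491, close to the threshold, while 7.99% of the precursors were called. The adjusted p of that test was 0.978 for mmu-mir-150 and 0.980 for mmu-mir-342. The straight line over all ages gave mmu-mir-31 a slope of -0.18 log2 units per 10 months (SE 0.10, 95% interval -0.39 to 0.02, adjusted p = 0.212), and 19.8% of the precursors were called. From 9 months on the slope was 0.22 per 10 months (SE 0.13, 95% interval -0.04 to 0.48, adjusted p = 0.368), with 2.74% of 329 precursors called. The 2 slopes therefore had opposite signs, and neither passed the threshold.

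Between consecutive older ages no member was called. For mmu-mir-31 the log2 change was 0.25 at 15 against 9 months (95% interval -0.33 to 0.84), 0.17 at 24 against 15 months (-0.42 to 0.76) and -0.01 at 30 against 24 months (-0.60 to 0.58), with adjusted p of at least 0.918. For mmu-mir-150 at 30 against 24 months it was -0.43 (95% interval -1.35 to 0.49, adjusted p = 0.885). edgeR called 0% of all precursors at 15 against 9 months, with 7 at an unadjusted p under 0.05, and 0% at 30 against 24 months, with 13. DESeq2 and limma-voom also called 0 in both. At 24 against 15 months edgeR called 2.07%.

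The calls of mmu-mir-31 depended on single libraries. The call at 9 against 2 months ended when any one of replicates 3, 4 or 5 of 2 months was left out (adjusted p = 0.0795, 0.0818 and 0.0707) or any one of replicates 3, 4 or 5 of 9 months (0.0509, 0.0528 and 0.0694), while the log2 change stayed within -1.29 and -1.04. With the sequencing lane as a term the change was -1.18 with an adjusted p of 0.0740. The call for any age ended without replicates 1, 3, 4 or 5 of 2 months, any replicate of 9 months, replicates 1, 3 or 4 of 15 months, 1, 3 or 5 of 24 months, or 1 or 5 of 30 months. In the other direction, mmu-mir-31 passed at 24 against 2 months without replicate 4 of 24 months (-0.96, adjusted p = 0.0343) and at 30 against 2 months without replicate 3 of 30 months (-1.01, adjusted p = 0.0174), the highest library of its age in each case.

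Markers of other blood cells also differed between these ages. mir-223, a microRNA of neutrophils and monocytes, had risen by 0.97 log2 units at 9 against 2 months (SE 0.17, adjusted p = 9.24e-04), and the 7 myeloid markers, 2 of them called higher, summed to 351 to 469 CPM at 9 months, against 241 to 313 CPM at 2 months. None of the 13 lymphocyte markers, 6 red cell markers or 4 platelet markers was called at 9 against 2 months, where 2.07% of all precursors were. The lymphocyte markers summed to 9687 to 16776 CPM at 9 months, against 9908 to 12242 CPM at 2 months. Platelet markers, which include mir-126a, summed to 4.95 to 18.5 CPM at 9 months, against 13.4 to 18.1 CPM at 2 months, and red cell markers to 554723 to 930353 CPM, against 746611 to 888572 CPM. Among the 7 epithelial markers, 5 could be tested and 1 was called: mir-203 rose by 0.57 (SE 0.15, adjusted p = 0.0457). The median log2 change of the 5 was -0.06, against -0.01 over all precursors. The 7 summed to 66.8 to 99.2 CPM at 9 months, against 68.8 to 127 CPM at 2 months. No marker of any list was at 0 in all libraries of an age. The part of other cell types in the lower mmu-mir-31 was not tested.

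Of the 13 other lymphocyte markers, edgeR called 0 at 30 against 2 months, where 14.2% of all tested precursors were called, with a median log2 change of 0.05, against -0.04 over all. At 24 against 2 months it also called 0 of 13, where 12.1% were called, with a median of 0.15. In the trend, where 19.8% were called, it called 1 of the 13: mir-146a, which restrains inflammatory signalling, rose by 0.37 per 10 months (SE 0.12, adjusted p = 0.0305). mir-155, induced in activated lymphocytes and macrophages, had a slope of 0.34 (SE 0.13, adjusted p = 0.0580). The median slope of the 13 was 0.02, against -0.02 over all precursors. mmu-mir-342 had a slope of -0.05 (95% interval -0.24 to 0.15, adjusted p = 0.786). Over the same ages 6 of 7 myeloid markers were called higher at 30 against 2 months, beside 14.2% of all precursors called in either direction, with sums of 340 to 567 CPM at 30 months, against 241 to 313 CPM at 2 months. Of the 4 platelet markers 2 were called lower there, with sums of 3.13 to 8.64 CPM at 30 months, against 13.4 to 18.1 CPM at 2 months. The 2 called were mir-126a, with a mean of 5.05 CPM at 30 months, and mir-199a-1. The latter had a mean of 0.35 CPM there, with libraries of 0.14 to 0.60 CPM, near the floor of 3 counts.

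With the 5 ages pooled, the 3 precursors varied between animals of 1 age more than most. Among the 152 precursors with a mean of at least 10 CPM, the median SD of log2 CPM within an age was 0.28. It was 0.84 for mmu-mir-150, rank 10, 0.57 for mmu-mir-342, rank 20, and 0.48 for mmu-mir-31, rank 32. These values pool the 5 ages, and the spread was not even over them. For mmu-mir-150 the SD of log2 CPM was 1.65 at 24 months and 0.33 to 0.55 at the other ages. It ran from 0.28 at 9 months to 0.81 at 30 months for mmu-mir-342, and from 0.23 to 0.63 at the same ages for mmu-mir-31. Counting error was at most 5.24% for mmu-mir-150, 11.3% for mmu-mir-342 and 9.02% for mmu-mir-31 in any library, which leaves out the noise of library preparation.

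mmu-mir-150 and mmu-mir-342 varied together from animal to animal. Over the 25 libraries Pearson's r of their log2 CPM was 0.83 (permutation p = 3.0e-05, Benjamini-Hochberg adjusted over 6 relations 1.8e-04) and Spearman's rho was 0.82 (p = 1.0e-05, the smallest that 100000 permutations can give, adjusted 6.0e-05). Without the 2 libraries farthest from the median of mmu-mir-150, replicates 3 and 4 of 24 months, r was 0.83. On deviations from the age means r was 0.82 (permutation p adjusted 6.0e-05) and rho 0.89, and on deviations from the lane means r was 0.82 (adjusted 1.2e-04), so the relation held within ages and within lanes. The lowest values fell largely in the same libraries. Replicates 3 and 4 of 24 months and replicate 1 of 30 months held the 3 lowest values of mmu-mir-150, and 2 of these held the 2 lowest of mmu-mir-342. The fitted line gave 0.55 log2 units of mmu-mir-342 for each log2 unit of mmu-mir-150.

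**Figure D3:**
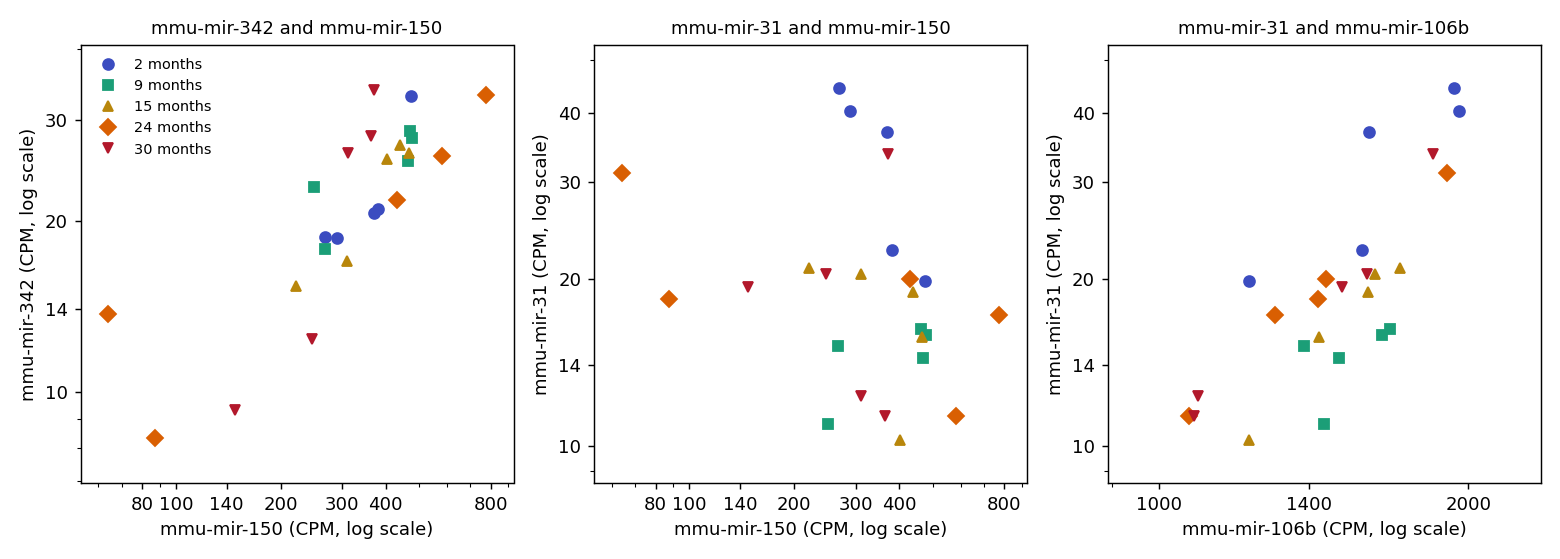
Levels of pairs of precursors in the 25 libraries (CPM, both axes logarithmic), with age by colour and symbol. mmu-mir-342 follows mmu-mir-150 with r = 0.83, mmu-mir-31 has r = -0.28 with mmu-mir-150, and mmu-mir-31 follows mmu-mir-106b with r = 0.79, with the 9-month libraries lying low in that panel.

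For mmu-mir-31 no such relation with the other 2 passed. Its r was -0.28 with mmu-mir-150 and -0.25 with mmu-mir-342 (permutation test, adjusted p = 0.323 for both). With mir-223 it was negative, r = -0.56 (permutation p = 0.00413, adjusted 0.0124) and rho = -0.51 (adjusted 0.0316), and r was -0.41 without replicates 3 and 4 of 2 months. Within ages r was -0.50 (adjusted p = 0.0743) and within lanes -0.51 (adjusted p = 0.0922), so neither passed, and with scaling by library totals alone r was -0.16 (adjusted p = 0.707). mmu-mir-150 had r = -0.21 and mmu-mir-342 r = -0.12 with mir-223 (adjusted p = 0.379 and 0.554).

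Set against every other precursor with at least 10 CPM, mmu-mir-150 and mmu-mir-342 were each most like the other. Of 151 precursors, 1 had r of at least 0.5 with mmu-mir-150 and 1 with mmu-mir-342, in each case the other of the pair. At r of -0.5 or below there were 3 with mmu-mir-150, namely mir-142b (-0.63), mir-142a (-0.63) and mir-322 (-0.52), and 1 with mmu-mir-342, mir-148a (-0.55). Outside the 3, the likest to mmu-mir-150 were mir-133a-1 (r = 0.43), mir-92a-2 (0.43) and mir-133a-2 (0.42), of which the mir-133a copies share their mature sequence and cannot be told apart. The likest to mmu-mir-342 were mir-92a-2 (0.41), mir-186 (0.38) and mir-30d (0.37). These are descriptions over 25 libraries that share scaling factors and depth.

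mmu-mir-31 had many precursors moving with it, 42 of 151 at r of at least 0.5 and 25 at -0.5 or below. The likest were mir-106b (r = 0.79), mir-374c (0.73) and mir-1839 (0.73). The lowest r with mmu-mir-31 was -0.82, larger in size than that with mir-106b. Reads of mir-374c cannot be told from those of mir-374b on the opposite strand without knowledge of strand. mir-106b, which lies with mir-93 and mir-25 in an intron of the replication gene Mcm7, had a mean of 1424 ± 333 CPM in the 30-month libraries, against 1660 ± 303 CPM in the 2-month ones (SD, n = 5 each). edgeR did not call this difference (log2 change -0.22, 95% interval -0.56 to 0.12, adjusted p = 0.409). Once the age means were taken out, r with mmu-mir-31 was 0.94 for mir-106b, 0.88 for mir-1839 and 0.79 for mir-374c. Within 9, 15, 24 and 30 months the library with the most mmu-mir-31 was also the one with the most mir-106b. These precursors had smaller age differences: at 9 against 2 months mir-106b had a log2 change of -0.12 (95% interval -0.45 to 0.22, adjusted p = 0.872), mir-374c of -0.20 and mir-1839 of -0.13, none of them called, against -1.18 for mmu-mir-31. The difference between these changes was not tested. With scaling by library totals r of mmu-mir-31 with mir-106b was 0.82.

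**Figure D4:**
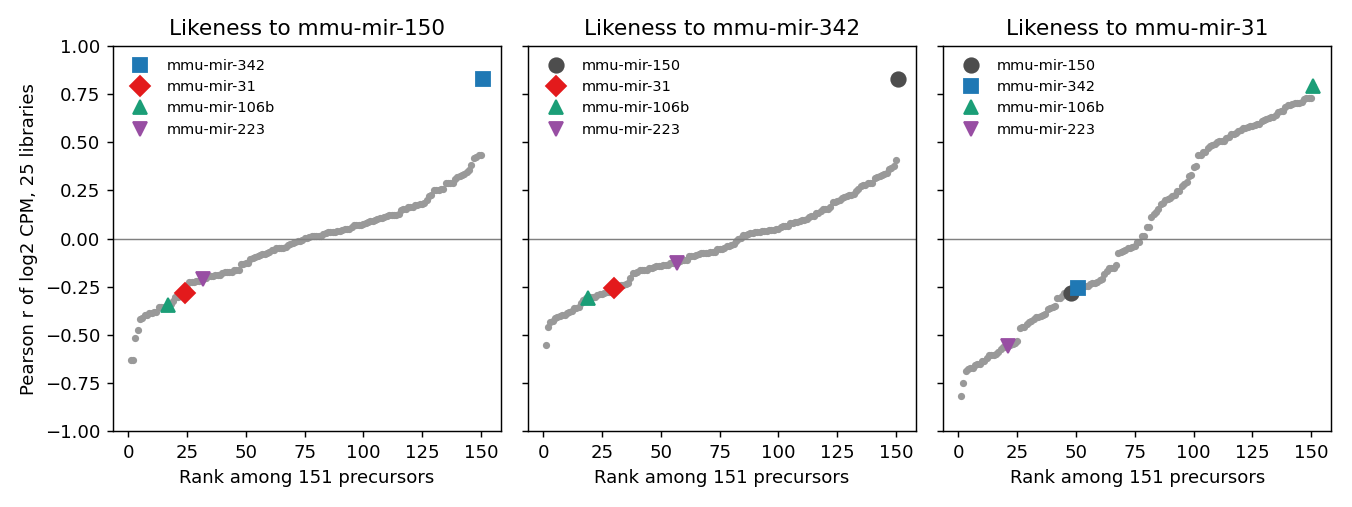
Pearson's r of log2 CPM over the 25 libraries between each of the 3 precursors and the 151 others with a mean of at least 10 CPM, ranked from lowest to highest; coloured symbols mark named precursors and grey points the rest. mmu-mir-342 and mmu-mir-150 stand apart at r = 0.83 in each other's panel, while r with mmu-mir-31 runs up to 0.79 without a gap and mmu-mir-106b is the top point. The lowest r with mmu-mir-31 is -0.82.

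Among the 10 lymphocyte markers with at least 10 CPM, r with mmu-mir-150 ran from -0.63 (mir-142a) to 0.26 (mir-146a), with a median of -0.09. For mmu-mir-342 it ran from -0.41 (mir-29c) to 0.32 (mir-146a), with a median of -0.09. For mmu-mir-31 it ran from -0.05 (mir-142a) to 0.59 (mir-29c), with a median of 0.28, and among the 6 myeloid markers from -0.68 (mir-99b) to -0.26 (mir-27a), with a median of -0.60. With library totals the r of mmu-mir-31 with the myeloid marker mir-223 was only -0.16. Among the 2 epithelial markers at this level, r with mmu-mir-31 was -0.27 for mir-203 and 0.59 for mir-141.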

How the data were processed

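Per the labels' protocols, RNA of 25 blood samples was sequenced after TruSeq small RNA library preparation. What the authors deposited is a table of counts per microRNA hairpin, in whole numbers and not normalised. The submitters' processing notes list SAMtools 1.3.1-9, bcl2fastq 1.8.4 and Trimmomatic 0.36. The aligner, counter, microRNA release, build and strand setting are not given there. Adapter ligation favours some sequences, so levels compare 1 precursor across libraries better than different precursors.

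The deposited counts were tested with edgeR 4.0.16 in R 4.3.3 (quasi-likelihood test, TMM factors, default filter by age, robust dispersion), with all 25 libraries in 1 fit, 20 for the trend from 9 months on, and Benjamini-Hochberg adjustment over all tested precursors at a threshold of 0.05, two-sided. log2 changes are older over younger. The biological coefficient of variation was 28.1%, and the fit was tested on simulated counts. log2 CPM used a prior count of 2. Correlations used NumPy 2.4.6 and 100000 two-sided permutations, within age or lane for deviations. Alternatives were other scalings, filters, tools (DESeq2 1.42.0, limma 3.58.1), a lane term, thinning and leaving out libraries.

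Replicate numbers follow sample order and pair no animals. No 2 libraries of 1 age were alike within sampling noise (smallest chi-square per degree of freedom 125 over 50 pairs). Whether replicates were processed apart is not stated, so p-values measure the spread between these samples. The index sequences in the column names follow the order of the ages with few exceptions, so index and age cannot be told apart. The members and marker lists were chosen with earlier results of these data known. Named precursors are the 3 members, the 3 likest to each with a mean of at least 10 CPM, and from each list mir-223, mir-451a or mir-203 and up to 2 others by trend p; other names were chosen after their values were seen.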

Additional observations from a re-analysis of the deposited data

Results flagged for a closer look

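mmu-mir-342 in replicate 2 of 2 months had 33.0 CPM, the highest of its age, while the nearest of the other 4 libraries had 20.9 CPM. The gap was 0.841 of the range of the 5 libraries, above Dixon's critical value at 95%. Among the 20 sets of 5 values examined this was the only one beyond that value, and chance alone gives about 1 in 20.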

How the results depend on the processing

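No call of mmu-mir-150 or mmu-mir-342 was made under any alternative run, and no called value changed sign. For mmu-mir-31, the any-age adjusted p of 0.0491 became 0.263 with library totals, 0.0534 with no filter, 0.0770 with limma-voom and 0.102 with the lane term, and ran from 0.0170 to 0.151 with 1 library left out; it missed the threshold in 21 of 35 alternatives. At 9 against 2 months the log2 change was -1.05 with library totals (adjusted p = 0.196), -1.18 with the lane term and -1.29 to -1.04 with 1 library left out, and the call ended in 8 of 21 alternatives. At 15 against 2 months it was -0.94 and passed with upper quartile factors. At 24 against 2 months it passed with DESeq2 at -0.78 and ran from -0.96 to -0.54 with 1 library left out, and at 30 against 2 months it passed with DESeq2 at -0.78 and ran from -1.01 to -0.56; with library totals these 2 were -0.39 (adjusted p = 0.452) and -0.49 (adjusted p = 0.391). The correlation of mmu-mir-31 with mir-223 was -0.16 with library totals, and that of mmu-mir-150 with mmu-mir-342 ran from 0.77 to 0.88; leaving out each library here was chosen after seeing the data. Counts of precursors called ran from 14 to 44 for any age (27), 3 to 8 at 9 against 2 months (7), 2 to 5 at 15 against 2 (5), 23 to 72 at 24 against 2 (41), 15 to 57 at 30 against 2 (48), 0 to 16 at 24 against 15 (7), 39 to 89 in the trend (67) and 3 to 15 from 9 months on (9). The cause of these shifts was not tested. No paired analysis was possible because replicate numbers only name samples.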

Other observations

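Per hairpin read of mmu-mir-342 there were between 4.67 and 23.4 reads of mmu-mir-150, with a median of 15.8 over the 25 libraries. This ratio needs no scaling of library sizes. Its mean by age was 16.1 ± 1.89 at 2 months, 15.5 ± 2.83 at 9, 16.4 ± 1.58 at 15, 16.1 ± 8.19 at 24 and 14.3 ± 3.60 at 30 months (SD, n = 5 each). Both extremes were at 24 months, with 4.67 in replicate 4 and 23.4 in replicate 1.

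Per 1000 reads of mir-106b, a precursor chosen for its likeness to mmu-mir-31, there were 14.3 to 23.1 reads of mmu-mir-31 at 2 months (median 20.6), 7.55 to 10.98 at 9 months (median 9.65), 8.38 to 12.6 at 15 months (median 11.9), 10.6 to 16.3 at 24 months (median 13.3) and 10.5 to 18.3 at 30 months (median 12.8). The ranges of 9 and 15 months lay under that of 2 months, and those of 24 and 30 months overlapped it. In CPM, mmu-mir-31 at 15 months did overlap 2 months. How many other precursors lie apart in this way per read of mir-106b was not counted. The ratio was computed after the values were seen and is given without a test.

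Among red cell markers the r of log2 CPM with mmu-mir-31 ran from -0.31 for mir-451a to 0.70 for mir-16-2, over 25 libraries that share scaling factors. The r of mmu-mir-31 with the share of red cell microRNAs in the counts was -0.26, and with the log2 total count -0.11. For mmu-mir-150 these were 0.39 and 0.37, and for mmu-mir-342 0.34 and 0.04.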
